A study of Mus musculus with 2 samples.

Results

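Lambda light chain B cells were picked cell by cell from light chain RNA in 2 single-cell libraries of flow-sorted colonic B cells. The day 14 library came from female C57BL/6J mice given 2% dextran sulfate sodium, a polysaccharide that injures the colonic epithelium, in the water for 7 days and then left to recover for 7 days. The day 0 library came from untreated female mice of the same strain. Each day is 1 library made with the 10x 3′ version 2 chemistry. How many mice went into each is not stated, and the treatment tag names dextran sulfate sodium for both samples. A cell of the deposited log-normalized tables was taken as a lambda cell when it held at least 3 UMIs (unique molecular identifiers, each standing for 1 captured transcript) of Iglc1, Iglc2 and Iglc3 together, more of these than of Igkc, and under 20% of its UMIs from immunoglobulin and Jchain genes. A kappa cell held at least 3 Igkc UMIs, more Igkc than Iglc UMIs, and was under the same limit. The rule gave 439 lambda cells and 7240 kappa cells among 7982 cells. Of these, 210 lambda and 4287 kappa cells came from day 14, and 229 lambda and 2953 kappa cells from day 0.

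A B cell carries an antigen receptor made of 2 identical heavy and 2 identical light chains, and the light chain is encoded at either the kappa locus or the lambda locus. In developing B cells kappa usually rearranges before lambda, and most mouse B cells end with kappa. The mouse lambda locus is small, with few variable genes and a few constant genes that each lie behind their own joining segment. Iglc1, Iglc2 and Iglc3 encode those constant domains, and Igkc encodes the only kappa constant domain.

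The constant exons set how well 3′ reads can tell the lambda genes apart, so their coding ends are shown. On GRCm38 (mm10) all 3 lie on the minus strand of chromosome 16, and each stretch below holds the last 120 coding bases, from GENCODE M21 transcripts. Iglc1 is at chr16:19061755-19061874, Iglc2 at chr16:19198539-19198658 and Iglc3 at chr16:19065368-19065487. Capitals mark the 39 positions where the 3 genes do not all carry the same base.
Iglc1: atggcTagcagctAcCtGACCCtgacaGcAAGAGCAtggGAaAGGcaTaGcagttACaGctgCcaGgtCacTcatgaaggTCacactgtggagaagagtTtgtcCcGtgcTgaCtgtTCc
Iglc2: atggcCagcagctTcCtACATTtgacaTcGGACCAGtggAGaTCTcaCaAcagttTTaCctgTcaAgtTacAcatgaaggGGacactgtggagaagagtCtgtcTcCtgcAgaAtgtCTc
Iglc3: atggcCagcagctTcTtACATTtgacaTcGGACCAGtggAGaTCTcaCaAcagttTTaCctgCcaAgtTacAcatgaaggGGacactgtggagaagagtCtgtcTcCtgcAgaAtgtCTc
Iglc2 and Iglc3 differed at 2 of these 120 positions, and at 12 of 315 aligned columns of the whole coding exon (96.2% identity). Iglc1 was 73.4% identical to Iglc2 and 74.5% identical to Iglc3 over the coding exon. The longest run shared by Iglc2 and Iglc3 was 79 bases, against 19 bases shared by Iglc1 and Iglc2. The annotated transcripts of Iglc2 and Iglc3 shared none of the 369 windows of 90 bases that Iglc2 holds. The split of reads between Iglc2 and Iglc3 is therefore less certain than their sum, and Iglc1 stands clearly apart.

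The values that chose the cells come first, as a description with no test. Among cells given a light chain class, lambda cells were 210 of 4497 at day 14 (4.67%, exact Clopper-Pearson 95% interval 4.07 to 5.33%) and 229 of 3182 at day 0 (7.20%, 6.32 to 8.15%). The intervals here reflect counting error alone. Because each day is 1 library, no difference between days was tested. The share depended on the Igkc that lambda cells also held. Igkc UMIs numbered at least 3 in 74 of the 210 lambda cells at day 14 (35.2%) and in 113 of the 229 at day 0 (49.3%). Lambda cells with under 3 Igkc UMIs were 3.02% (2.54 to 3.57%) of the assigned cells at day 14 and 3.65% (3.02 to 4.36%) at day 0, so the intervals of the 2 days overlapped in these cells. No Igkc UMI was found in 79 lambda cells at day 14 (37.6%) and in 42 at day 0 (18.3%).

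**Figure D1:**
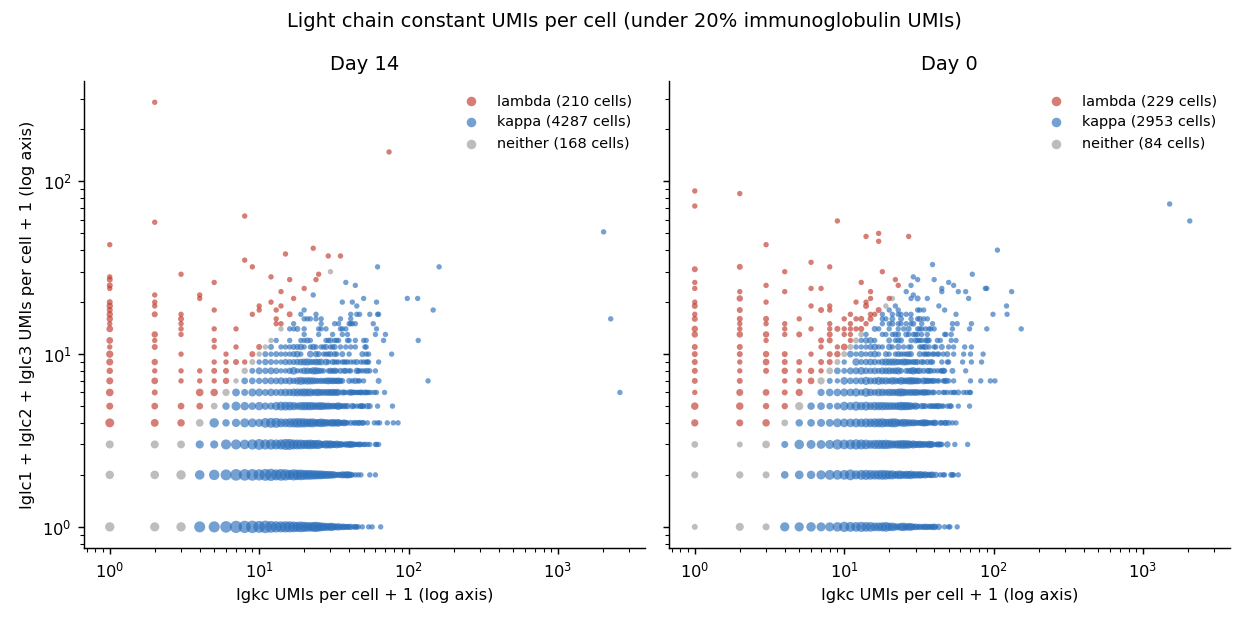
Each point is a pair of Igkc (x axis) and summed Iglc (y axis) UMI numbers per cell, plus 1 and on log axes, with its area growing with the number of cells there, for day 14 (left) and day 0 (right). Red marks lambda, blue kappa and grey cells of neither class. Lambda cells (210 and 229) lie above the diagonal and 79 of them at day 14 have no Igkc UMI, kappa cells (4287 and 2953) lie below it, and the border between the classes is filled with cells.

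The border was populated. At day 14, 33 lambda cells had exactly 3 Iglc UMIs and 29 had 1 UMI more of Iglc than of Igkc, against 20 cells just outside with 2 Iglc UMIs and 29 outside with as many Iglc as Igkc UMIs. At day 0 the numbers inside were 18 and 40, and outside 6 and 37. Lambda cells held a median of 8 Iglc UMIs at day 14 and 10 at day 0, and their highest values were 286 and 87. The median depth was alike, with 2242 UMIs per lambda cell and 2249 per kappa cell at day 14, and 2311 per lambda cell and 2275 per kappa cell at day 0.

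Lambda RNA was not limited to lambda cells. In kappa cells Iglc2 averaged 1.39 UMIs per cell at day 14 (exact Poisson 95% interval 1.35 to 1.42) and 1.95 at day 0 (1.90 to 2.00), and at least 1 Iglc2 UMI was present in 58.4% and 68.2% of them. T cells, which should lack these genes, served as the level of free RNA. They were taken as barcodes with at least 3 T cell receptor or CD3 UMIs and none of the B cell marker genes, among them Cd79a, Cd79b and Ms4a1, and all 36 and 47 of them were among barcodes left out of the deposited log-normalized tables. Iglc2 was found in 0 of 36 T cells at day 14 (exact upper bound 9.74%) and in 2 of 47 at day 0 (4.26%), although their median depths of 2910 and 3146 UMIs were above those of the kappa cells. Iglc3 had no UMI in T cells of either day, against 0.747 and 1.11 UMIs per kappa cell. The share of kappa cells with an Iglc2 or Iglc3 UMI was thus above the upper bound in T cells, which for Iglc2 was 14.5% at day 0. For Iglc1 the share of kappa cells was 11.4% at day 14 and 18.8% at day 0, against an upper bound in T cells of 14.5% on each day. At least 3 Iglc UMIs were found in 33.4% of kappa cells at day 14 and 47.3% at day 0, and in 10.1% and 18% after each cell was thinned to 1000 UMIs.

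Igkc behaved differently, since T cells did hold it. T cells averaged 0.778 Igkc UMIs at day 14 and 1.09 at day 0, with at most 3 and 4 in a cell. At least 3 were found in 1 of 36 T cells at day 14 and in 6 of 47 at day 0. What this free RNA does to the number of lambda cells with under 3 Igkc UMIs on each day was not tested. Lambda cells averaged 3.49 at day 14 (3.24 to 3.75) and 4.38 at day 0 (4.11 to 4.66), with medians of 1 and 2, against medians of 15 and 16 in kappa cells. The rule itself sets Igkc lower in lambda than in kappa cells, and the T cells, which the rule did not use, lay below both.

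**Figure D2:**
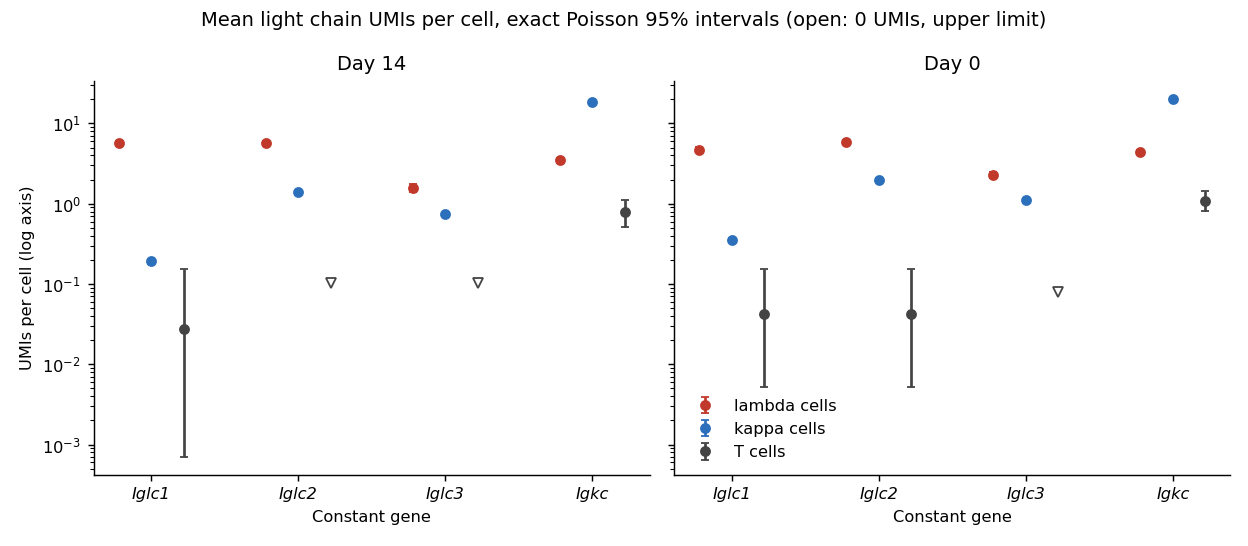
Mean UMIs per cell (log axis) of Iglc1, Iglc2, Iglc3 and Igkc in lambda, kappa and T cells at day 14 (left) and day 0 (right), with exact Poisson 95% intervals and open triangles at the upper limit where no UMI was found. Iglc2 and Iglc3 in kappa cells (1.39 and 0.747 at day 14) sit above T cells, and Igkc is present in all 3 kinds of cell.

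Iglc1 separated the classes best. Iglc1 averaged 5.75 UMIs per lambda cell and 0.193 per kappa cell at day 14, and 4.73 and 0.354 at day 0. Iglc1 made up 44.3% of the Iglc UMIs of lambda cells and 8.30% of those of kappa cells at day 14, and 36.7% and 10.4% at day 0. Iglc2 was the commonest lambda RNA of kappa cells, with 59.6% of their Iglc UMIs at day 14 and 57.2% at day 0, followed by Iglc3 with 32.1% and 32.5%. Iglc2 in lambda cells made up 43.6% at day 14 and 45.7% at day 0, and Iglc3 made up 12.1% and 17.7%.

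The constant gene a lambda cell used was read as the gene with over 50% of its Iglc UMIs. At day 14 this was Iglc1 in 72 of 210 cells (34.3%, exact interval 27.9 to 41.1%), Iglc2 in 103 (49.0%, 42.1 to 56.0%), Iglc3 in 14 (6.67%, 3.69 to 10.9%) and none of them in 21. At day 0 it was Iglc1 in 74 of 229 cells (32.3%, 26.3 to 38.8%), Iglc2 in 97 (42.4%, 35.9 to 49.0%), Iglc3 in 28 (12.2%, 8.28 to 17.2%) and none in 30. The intervals of the 2 days overlapped for each gene. Among lambda cells with under 3 Igkc UMIs the order changed at day 0, with Iglc1 in 47.4% and Iglc2 in 31.0%, while at day 14 Iglc1 was in 40.4% and Iglc2 in 44.1%.

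The kappa RNA of cells of the 3 constant genes is a description, since the rule used Igkc. Under 3 Igkc UMIs were found in 76.4% (64.9 to 85.6%) of Iglc1 cells at day 14 and 74.3% (62.8 to 83.8%) at day 0. The share was 58.3% (48.1 to 67.9%) and 37.1% (27.5 to 47.5%) in Iglc2 cells, and 64.3% (35.1 to 87.2%) and 32.1% (15.9 to 52.4%) in Iglc3 cells. The intervals overlapped at day 14, and at day 0 that of Iglc1 lay above the other 2. The median Igkc number was 0 and 1.5 in Iglc1 cells, against 2 and 4 in Iglc2 cells.

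The fourth marker of the label, the variable gene Iglv1, had too few UMIs to mark these cells. Iglv1 had a UMI in 1 of 210 lambda cells at day 14 (0.476%) and 3 of 229 at day 0 (1.31%), against 0.537% and 1.12% of kappa cells. Iglv2 had none in lambda cells of either day. Variable genes were rarely read in these 3′ libraries, as all Igkv genes together had a UMI in 4.22% of kappa cells at day 14 and 9.01% at day 0. Which variable gene a lambda cell used can therefore not be told. The B cell part of the label held. Cd79a, the signalling partner of the antigen receptor, had a UMI in 96.7% of lambda cells at day 14 and 95.6% at day 0, against 98.3% and 98.0% of kappa cells. Ms4a1, which encodes CD20, had one in 78.6% and 73.4% of lambda cells. None of those B cell marker genes had a UMI in 1 lambda cell of each day. The one at day 0 held 13 Iglc3 UMIs with no Iglc1 or Iglc2, and also 28 UMIs of Bst2 and 8 of Siglech, a lectin known from plasmacytoid dendritic cells, with 19 of Tyrobp and 15 of Fcer1g, both adaptors of myeloid and natural killer cell receptors. It was the only kept cell of either library with 2 or more Siglech UMIs. The day 14 one held 17 Iglc3 and 4 Iglc2 UMIs and none of Bst2, Siglech, Tyrobp or Fcer1g.

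Both libraries together held few lambda cells with plasma cell levels of immunoglobulin. Among cells at or over the 20% limit, which the rule leaves out, 3 of 27 at day 14 (11.1%) and 1 of 24 at day 0 (4.17%) had more Iglc than Igkc UMIs. Iglc1 led in all 4, with 3721, 3079 and 1456 UMIs at day 14 and 9840 at day 0. Of the kept cells of the 2 libraries, 17 shared a barcode sequence, 1 of them a lambda cell.

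Heavy chain class was read from at least 3 UMIs of constant genes and, like the light chain, is a description. Most lambda cells were unswitched, with IgM or IgD in 151 of 156 classed cells at day 14 (96.8%) and 183 of 194 at day 0 (94.3%), against 97.7% and 95.8% of kappa cells. IgA, the secreted class of the gut lining, was the class of 2 lambda cells at day 14 (1.28%, 0.156 to 4.55%) and 11 at day 0 (5.67%, 2.86 to 9.92%), against 1.59% (1.18 to 2.10%) and 2.92% (2.27 to 3.70%) of kappa cells. The lambda and kappa intervals overlapped on both days at full depth. With cells thinned to 1000 UMIs before they were classed, IgA was the class of 9 of 96 lambda cells at day 0 (9.38%, 4.38 to 17.1%) and 21 of 952 kappa cells (2.21%, 1.37 to 3.35%), where the intervals did not overlap, and of 1 of 64 (1.56%) and 17 of 1123 (1.51%) at day 14. Any Igha UMI was present in 16.7% of lambda cells at day 14 and 41.0% at day 0, in 13.4% and 36.6% of kappa cells, and in 8.33% and 31.9% of T cells. The T cells of each library thus carried Igha in a share near that of the B cells. Ighm, the IgM heavy chain, was likewise in 69.4% and 53.2% of T cells, against 86.7% of lambda cells at day 14 and 206 of 229 at day 0. Ighd, the IgD heavy chain, was in 61.4% and 62.4% of lambda cells and 62.6% of day 14 kappa cells, but in 0 of 36 T cells at day 14 and 6.38% at day 0.

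Genes outside the rule were compared between the classes to see what else set lambda cells apart. Lambda cells had more S100a6, Cd9, Cd24a and Cd79b and less Cd74, H2-Aa, Vps37b and Satb1 than kappa cells, and all but S100a6 and Cd9 differed by less than 2-fold. UMIs were summed per library and class, and the 4 sums were tested with edgeR's quasi-likelihood test with the library as a block, so each library compares its own lambda and kappa cells. Immunoglobulin and mitochondrial genes were left out. Of 9011 genes tested, 55 (0.610%) passed, of which 23 (0.255%) rose and 32 (0.355%) fell in lambda cells, at a Benjamini-Hochberg adjusted p under 0.05. Levels below are CPM, UMIs scaled to the same total in every sum over genes other than immunoglobulin and mitochondrial ones. Markers of other cells were low in both classes. The 9 T cell markers summed to 25.7 CPM in lambda and 23.1 in kappa cells at day 14, and to 48.0 and 35.9 at day 0, with Cd3e at 0 in the lambda cells of both days. The 8 myeloid markers summed to 51.3 and 47.3 CPM at day 14 and to 111 and 63.2 at day 0, with 34 of the 65 lambda UMIs in the cell with Siglech, and their part in the result was not tested.

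These calls were fragile, which bears on every gene below. DESeq2 on the same sums called 1 gene higher and 3 lower (S100a6, and Cd74, H2-Aa and Vps37b), and edgeR without cells over 2 times the median UMIs called 6 and 8. Such deep cells were 9.05% of lambda and 6.46% of kappa cells at day 14, and 6.55% and 4.06% at day 0, and their part in the result was not tested. With lambda cells that held under 3 Igkc UMIs edgeR called 0 higher and 1 lower (394 at an unadjusted p under 0.05), with cells free of switched heavy chain UMIs 0 and 0 (441), and with cells thinned to 1000 UMIs 0 and 1 (416).

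S100a6, a calcium-binding protein that is abundant in activated and memory lymphocytes, was at 67.8 CPM in lambda cells and 20.9 in kappa cells at day 14, and at 156 and 30.0 at day 0. It was higher in lambda cells in both libraries, by 3.24-fold and 5.20-fold, and rose by a log2 ratio of 2.08 ± 0.18 (SE, edgeR adjusted p = 1.35e-26). Few cells carried it. S100a6 had a UMI in 13 of 210 lambda cells at day 14 (6.19%) and 14 of 229 at day 0 (6.11%), against 2.71% and 3.01% of kappa cells, and a single cell held 42 of the 91 UMIs at day 0. Without the cell with most UMIs in each sum the log2 ratio was 1.58. Lambda cells with under 3 Igkc UMIs had S100a6 at 43.0 CPM at day 14 and 116 at day 0, and those with 3 or more at 104 and 193. T cells held it as well, in 11.1% and 10.6% of them.

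Cd9, a tetraspanin used as a marker of B-1 and marginal zone B cells, was at 71.5 CPM in lambda cells and 18.6 in kappa cells at day 14, and at 29.1 and 16.8 at day 0. The ratio was 3.85 (exact interval 2.66 to 5.46) at day 14 and 1.74 (0.981 to 2.90) at day 0, where the interval includes no difference. The log2 ratio over both was 1.46 ± 0.25 (SE, edgeR adjusted p = 7.60e-06), and no lambda cell held more than 4 UMIs. Cd9 had a UMI in 10.5% and 5.68% of lambda cells and in 3.24% and 3.12% of kappa cells at the 2 days. After thinning to 1000 UMIs per cell Cd9 was in 6 lambda cells on each day, 2.88% (1.07 to 6.17%) at day 14 and 2.62% (0.967 to 5.62%) at day 0. Kappa cells had 1.11% (0.814 to 1.47%) and 1.16% (0.806 to 1.62%), so the intervals overlapped on both days. The lambda cells with under 3 Igkc UMIs had Cd9 at 70.7 CPM at day 14 and, in 4 UMIs, 14.4 at day 0. T cells held Cd9 as well, in 11.1% and 8.51% of them.

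A pair of more broadly expressed surface genes rose by less. Cd24a, a surface glycoprotein high on immature B cells, was at 511 CPM in lambda cells and 362 in kappa cells at day 14, and at 537 and 447 at day 0 (log2 ratio 0.34, edgeR adjusted p = 0.00345). Cd79b, the other signalling chain of the antigen receptor, was at 905 and 713 CPM at day 14 and at 898 and 785 at day 0 (log2 ratio 0.23, adjusted p = 0.0303 by edgeR). Cd79a, its partner, did not pass the test. Among lambda cells with under 3 Igkc UMIs and not mostly Iglc1, the log2 ratio of Cd24a was -0.01.

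Some other genes that rose rested on 1 library or on few cells. Apoe, a lipid carrier protein, was at 949 CPM in lambda and 608 in kappa cells at day 14, but at 1036 and 1027 at day 0, so its call came from day 14. The heat shock gene Hspa1a was at 191 and 116 CPM at day 14 and at 154 and 75.9 at day 0, with 46 of its 90 lambda UMIs at day 0 in 1 cell. Pclaf, a DNA replication factor, was found in 2 lambda cells at day 14 and 3 at day 0, and its log2 ratio of 1.20 turned to -0.88 in the lambda cells with under 3 Igkc UMIs. Hist1h2bc, a histone gene, had ratios of 2.65 (1.93 to 3.56) at day 14 and 1.25 (0.849 to 1.78) at day 0. Ly6k, Camk2n1, Dnajc7, Dstn and Mapk6 rose as well. Dnajc7, a heat shock protein cochaperone, was found in 60 and 59 lambda cells, with ratios of 1.74 (1.38 to 2.16) at day 14 and 1.34 (1.06 to 1.67) at day 0. Dstn, an actin-severing protein, had a ratio of 2.08 in both libraries. Camk2n1, an inhibitor of calmodulin-dependent kinase, had the highest log2 ratio of these 5 genes, 2.07, in 5 and 8 lambda cells.

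Several abundant genes fell by small amounts. Cd74, the invariant chain that escorts class II molecules, was at 23758 CPM in lambda cells and 27223 in kappa cells at day 14, and at 25695 and 28578 at day 0. That is 0.873-fold and 0.899-fold, a log2 ratio of -0.21 ± 0.03 (SE, edgeR adjusted p = 3.18e-11). H2-Aa and H2-Ab1, the 2 chains of a class II antigen-presenting molecule, had log2 ratios of -0.25 and -0.19, and H2-DMb2, part of the class II peptide exchanger, -0.25. All 4 were lower in lambda cells in both libraries. Without the cell with most UMIs in each sum, Cd74 (-0.09) was no longer called by edgeR. That does not show dependence on 1 cell, as the top cells held 197 of 12963 lambda UMIs at day 14 and 183 of 14985 at day 0. The setting takes a larger part from lambda sums (545634 to 516851 UMIs at day 14) than from kappa sums (10509954 to 10461194). What this does to the ratios of abundant genes was not tested. The summed level of the 9 mature B cell markers, which include 3 of these genes, was 40566 CPM in lambda and 45878 in kappa cells at day 14, and 44633 and 48931 at day 0.

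Vps37b, a subunit of the endosomal sorting machinery, was at 477 CPM in lambda cells and 714 in kappa cells at day 14, and at 665 and 848 at day 0 (log2 ratio -0.49 ± 0.07 SE, edgeR adjusted p = 5.88e-10). Kappa cells with 10 or fewer Igkc UMIs had more Vps37b than all kappa cells, at 795 CPM (762 to 829) at day 14 and 1016 (965 to 1069) at day 0. Satb1, a chromatin organizer of lymphocytes, was at 329.9 and 463 CPM at day 14 and at 362 and 469 at day 0. Crem, a cyclic AMP responsive transcription factor, Malt1, a protease of antigen receptor signalling, and Erlin1, an endoplasmic reticulum protein, had log2 ratios of -0.31, -0.63 and -1.04. Fth1, the ferritin heavy chain, and the nuclear RNA Malat1 fell by 0.20 and 0.12 on the log2 scale.

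**Figure D3:**
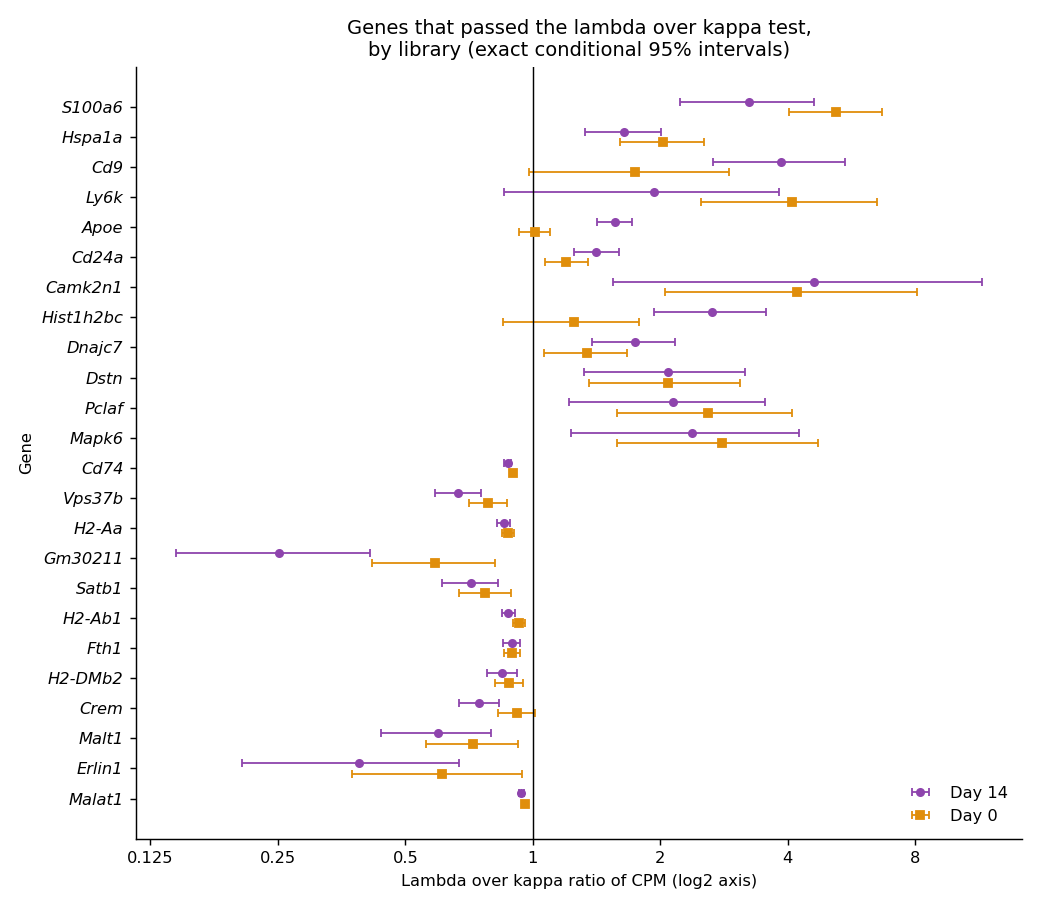
Ratio of CPM in lambda over kappa cells (log2 axis) for the 24 genes named by smallest p in each direction, in the day 14 (circles) and day 0 (squares) libraries, with exact conditional 95% intervals. Genes that rose lie right of 1 with wide intervals (S100a6 at 3.24 and 5.20), Apoe at day 0 lies at 1.01, and the class II genes lie just left of 1 with narrow ones (Cd74 at 0.873 and 0.899).

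Gm30211, a long non-coding RNA gene, had a log2 ratio of -1.28 and needs a separate reading because it is not independent of the rule. It spans chr6:70719074-70740554 on the plus strand of mm10 and Igkc lies within it on the same strand at chr6:70726435-70726966, so reads of the 2 genes can overlap. Lambda cells with under 3 Igkc UMIs had it at 15.4 CPM at day 14 and 14.4 at day 0, lambda cells with 3 or more at 49.9 and 114, and kappa cells at 116 and 113. Gm30211 was lowest where Igkc was lowest, and was in none of the T cells. Cells with a Gm30211 UMI were 2.21% and 2.59% of the lambda cells with under 3 Igkc UMIs and 18.4% and 17.9% of kappa cells, or 0.741% and 0.862% against 9.37% and 8.65% after thinning to 1000 UMIs. Even kappa cells with 10 or fewer Igkc UMIs had it in 12.7% and 11.8%.

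**Figure D4:**
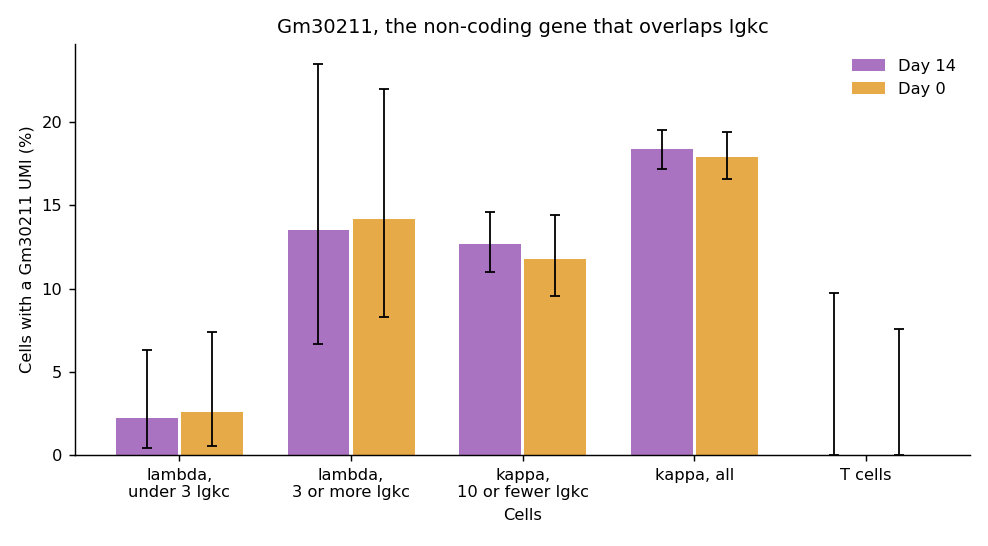
Percent of cells with a Gm30211 UMI (y axis) by light chain class and Igkc number at day 14 (left bars) and day 0 (right bars), with exact Clopper-Pearson 95% intervals. Lambda cells with under 3 Igkc UMIs (2.21% and 2.59%) sit below lambda cells with 3 or more (13.5% and 14.2%) and below kappa cells (18.4% and 17.9%), and no T cell had a UMI.

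Genes beside the light chain loci otherwise did not pass. Of 5 genes tested within 500 kb of the kappa locus, 1 fell (Gm30211) and none rose by edgeR, and of 7 within 500 kb of the lambda locus none passed. Rpia, a pentose phosphate enzyme gene 65266 bp past Igkc by their ends, was at 40.3 and 44.6 CPM in lambda cells and 40.8 and 54.7 in kappa cells. In lambda cells with under 3 Igkc UMIs it was at 15.4 and 28.9 CPM, on 5 and 8 UMIs. Eif2ak3, the stress kinase PERK, was at 71.5 and 75.4 CPM in lambda cells and 91.4 and 108 in kappa cells. Mrpl40, a mitochondrial ribosomal protein gene near the lambda locus, had a log2 ratio of 0.47 that did not pass.

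Gene lists of B cell stages and pathways are given by their counts and medians, against a median log2 ratio of -0.003 over all genes tested, of which 0.255% rose and 0.355% fell. With so few genes called over all, 0 or 1 call in a list cannot be read as a result about that list. Of 11 tested B-1 cell genes 2 rose (S100a6 and Cd9) and none fell, with 10 of 11 above 0 and a median of 0.44. Plac8, the most abundant of the list, had a log2 ratio of 0.18 that did not pass (edgeR adjusted p = 0.0651), at 1627 CPM in lambda and 1207 in kappa cells at day 14 and 1056 and 1068 at day 0. Of 11 marginal zone genes only Cd9 rose, with a median of 0.15, and Notch2, a receptor needed for those cells, had -0.64 without passing. Of 7 transitional and immature genes Cd24a rose. Vpreb3, the only tested gene of the surrogate light chain and recombination list, had a log2 ratio of -0.17 and did not pass, and the other 6 of that list were too low to test.

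Of 17 light chain choice and lineage transcription factors, Ets1 fell (log2 ratio -0.29, edgeR adjusted p = 0.00728) and none rose, with a median of -0.01. Ets1, a factor that restrains plasma cell differentiation, was at 508 CPM in lambda and 605 in kappa cells at day 14 and at 600.1 and 716 at day 0. Rel, an NF-kB subunit, had -0.17 and did not pass. Of 18 receptor complex and signalling genes Cd79b alone passed. Of 16 antigen response and anergy genes Cd86, a costimulatory ligand, fell (-0.41), with a list median of -0.02. Of 12 follicular genes and 8 plasma cell genes none passed, with medians of -0.02 and 0.11, and Mzb1, a chaperone of antibody secretion, had 0.20. Of 15 germinal center and memory genes Pclaf rose, with a list median of -0.21.

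None of 25 interferon-gamma-associated genes passed the lambda over kappa test by edgeR, with a median log2 ratio of 0.11, where 0.610% of all genes passed. Of 22 type I interferon genes 1 rose, Ifi27l2a, a mitochondrial interferon-induced protein, at 464 CPM in lambda and 340 in kappa cells at day 14 and 307 and 253 at day 0 (log2 ratio 0.33).

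The same interferon genes were then compared between the days within the lambda cells. Lambda cells of day 14 had more interferon-gamma-associated RNA than those of day 0, with 1794 CPM against 1164 summed over the list, a ratio of 1.54 (exact conditional 95% interval 1.40 to 1.70). Kappa cells had 1666 against 1092, a ratio of 1.53 (1.48 to 1.57). With 1 library per day these ratios describe the libraries and were not tested, and lambda and kappa cells of a day share their library. Of the list's genes with at least 20 UMIs in lambda cells, 8 of 14 were at least 1.5-fold higher at day 14 and none as much lower, against 6.69% higher and 12.6% lower among all 4948 such genes. In kappa cells 18 of 26 were higher and 1 lower, against 2.36% and 6.91% of all 9883.

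Serpina3g, a protease inhibitor induced by interferon-gamma, was counted 41 times in lambda cells of day 14 and 9 times in those of day 0, in 27 and 7 cells. Its day 14 over day 0 ratio was 4.87 (2.33 to 11.4) in lambda cells and 5.30 (4.36 to 6.50) in kappa cells. Gbp7, a guanylate-binding protein, had a ratio of 5.08 (1.69 to 20.5) in lambda and 3.20 (2.25 to 4.64) in kappa cells, and Irf1, an interferon-induced transcription factor, 1.88 (1.13 to 3.21) and 2.01 (1.76 to 2.29). The lambda and kappa intervals overlapped for each of these genes.

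**Figure D5:**
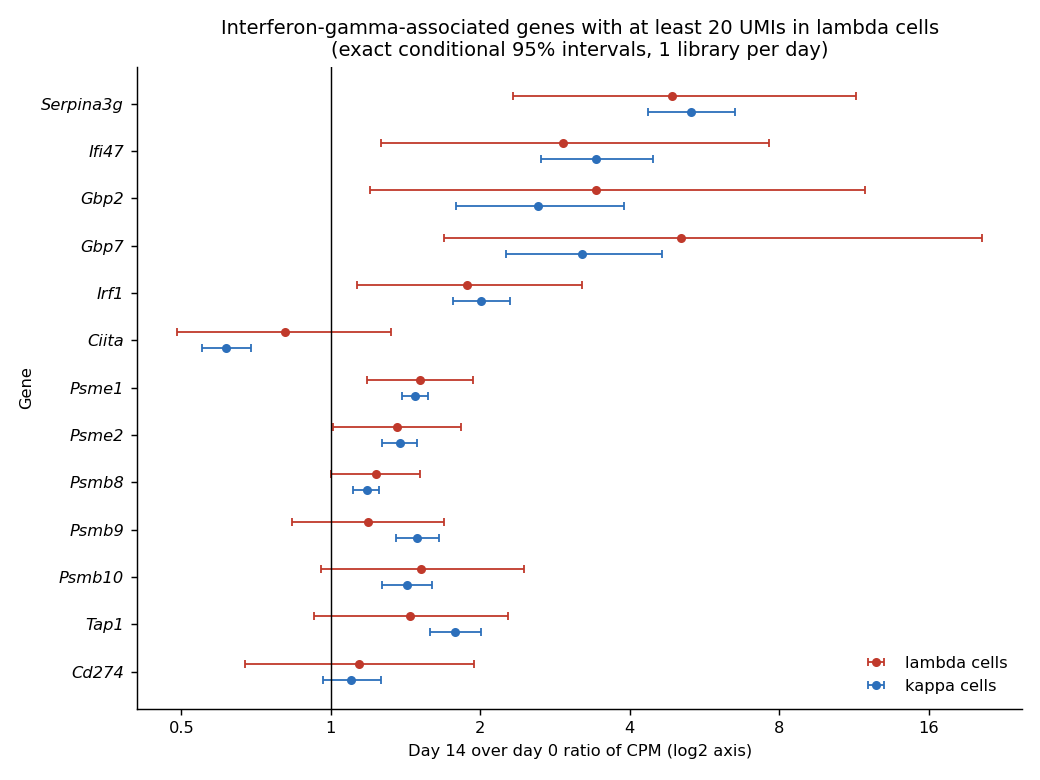
Day 14 over day 0 ratio of CPM (log2 axis) for 13 of the 14 interferon-gamma-associated genes with at least 20 UMIs in lambda cells, in lambda (upper points) and kappa cells (lower points), with exact conditional 95% intervals. Lambda and kappa points lie side by side, as for Serpina3g (4.87 and 5.30), and of the 13 plotted genes Ciita alone lies left of 1 (0.808 and 0.616).

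Of 10 type I interferon genes with at least 20 UMIs in lambda cells, 3 were at least 1.5-fold higher and 2 as much lower at day 14. Among all 4948 such genes 6.69% were higher and 12.6% lower. The list's summed ratio was 1.27 (1.13 to 1.43) in lambda and 1.33 (1.29 to 1.38) in kappa cells. Zbp1, a sensor of unusual nucleic acids, had a ratio of 5.77 (2.19 to 19.2) in lambda and 3.87 (3.06 to 4.95) in kappa cells. Bst2, an interferon-induced membrane protein, was counted 18 times in lambda cells of day 14 and 49 times in those of day 0. Of those 49, 28 lay in the 1 cell with Siglech described above, and among lambda cells with a B cell marker the ratio was 0.912 (0.458 to 1.80).

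Over all genes, 76 of 2613 with at least 50 UMIs in lambda cells were at least 1.5-fold higher at day 14 (2.91%) and 191 as much lower (7.31%). In kappa cells 119 of 8721 were higher (1.36%) and 401 lower (4.60%). The lambda sums were smaller, and equal counts of 25 and 25 UMIs already leave a ratio between 0.551 and 1.81, so the larger share of lambda genes past 1.5-fold does not show a larger change. The median log2 ratio was -0.06 in lambda and -0.09 in kappa cells. TMM factors in place of totals gave 121 higher and 133 lower in lambda cells, and 193 and 249 in kappa cells.

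Beside Serpina3g, lambda ratios with the highest lower bounds included those of AW112010 (3.06), Rsu1 (2.89), Cd9 (2.45), Ptpn1 (2.43), Ly6a (1.76) and Plac8 (1.54). Ptpn1 is a phosphatase that acts on JAK kinases, and Ly6a is the interferon-inducible surface protein Sca-1. In kappa cells the ratios were 1.33 for AW112010, 1.58 for Rsu1, 1.11 for Cd9, 1.61 for Ptpn1, 1.41 for Ly6a and 1.13 for Plac8. The lambda and kappa intervals did not overlap for AW112010 (1.67 to 5.94 and 1.15 to 1.53), nor for Plac8 (1.39 to 1.71 and 1.10 to 1.16), and the difference was not tested. As the lambda ratios alone picked these genes, the choice favours lambda ratios that lie beyond the kappa ones. Plac8 gave 1.06 (0.923 to 1.23) in lambda cells with under 3 Igkc UMIs.

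The lambda ratios with the lowest upper bounds were those of Klf4, Lrmp, Txndc5, Idi1, Hist1h1c, Rgs1, S100a6 and H2-DMb1. Klf4, a transcription factor that restrains proliferation, was counted 12 times at day 14 and 39 times at day 0, giving 0.329 (0.157 to 0.641) in lambda and 0.748 (0.647 to 0.865) in kappa cells. Idi1, an enzyme of isoprenoid synthesis, had 0.413 (0.240 to 0.685) in lambda and 0.951 (0.850 to 1.06) in kappa cells. The intervals of the 2 classes did not overlap for Klf4, Idi1 and Txndc5, an endoplasmic reticulum oxidoreductase (0.348 and 0.754), and these differences were not tested. The genes were picked by the bound of their lambda ratio and not by kappa, which by itself favours such gaps. Rgs1, a regulator of G protein signalling, had 0.425 in lambda and 0.388 in kappa cells, and H2-DMb1, a class II peptide exchange subunit, 0.490 and 0.680. For S100a6, with a ratio of 0.435, single lambda cells held 13 of the 37 UMIs at day 14 and 42 of the 91 at day 0. Without those cells its sums were 24 at day 14 and 49 at day 0.

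Lists of B cell stages were also set side by side between the days. The follicular and naive list summed in lambda cells to 2898 CPM on day 14 against 3628 CPM on day 0, which is 0.799-fold (0.748 to 0.853), with 0.760 (0.747 to 0.773) in kappa cells. The antigen response and anergy list had 0.821 (0.759 to 0.888) in lambda and 0.825 (0.809 to 0.842) in kappa cells. The summed B-1 list had 1.32 (1.21 to 1.45) in lambda and 1.08 (1.05 to 1.11) in kappa cells. The medians over its genes ran the other way, at -0.18 and -0.39 on the log2 scale. Of its 7 genes with at least 20 UMIs in lambda cells, 3 were at least 1.5-fold higher and 2 as much lower. Among all 4948 such genes 6.69% were higher and 12.6% lower. Plac8 alone gave 888 of the B-1 list's 1107 lambda UMIs at day 14 and 616 of 893 at day 0, and Plac8 was at 1.06 in lambda cells with under 3 Igkc UMIs. The marginal zone list had 1.27 (1.12 to 1.43) in lambda and 0.991 (0.960 to 1.02) in kappa cells, with 309 of its 578 lambda UMIs at day 14 from Mzb1. The plasma cell list had 1.06 (0.931 to 1.20) in lambda and 0.884 (0.855 to 0.915) in kappa cells. Mzb1 belongs to this list as well, and gave 309 of its 481 lambda UMIs at day 14 and 248 of its 486 at day 0. The marginal zone and plasma cell lists are therefore not independent of each other. The lambda and kappa intervals overlapped for the follicular and antigen response lists and not for the B-1, marginal zone and plasma cell lists, and no difference between classes was tested.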

How the data were processed

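UMI counts per gene and barcode were deposited as the authors' matrices, which name Cell Ranger 3.0.1 per the file headers. The submitters' processing notes add Seurat 3.0 and build mm10. Nothing in the sources used here states the annotation or the cell filter. Natural log values, scaled by the authors to 10000 per cell, were deposited in a second table that served only to define the cell set. The 4692 day 14 and 3290 day 0 cells held 12317052 and 8690102 UMIs.

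The members and gene lists were chosen with earlier results of these data known. Raw counts were summed per library and class after 425 immunoglobulin genes and 13 mitochondrial genes were left out. The 4 sums (545634 and 583197 UMIs in lambda cells, 10509954 and 7164000 in kappa cells, at day 14 and day 0) were tested with edgeR 4.0.16 in R 4.3.3 (TMM, filterByExpr, library as a block, 1 residual degree of freedom), with DESeq2 1.42.0 as an alternative. The p-values rest on a spread shared over genes (common dispersion 0.000795), taken from 2 libraries of different days, which may be technical. Each gene's own spread between the libraries had no weight (infinite prior degrees of freedom). A small p therefore does not show that a gene's ratio repeated between the libraries. A sum shows neither whether fewer cells express a gene nor whether each holds less. Shares carry exact Clopper-Pearson, sums exact Poisson and ratios exact conditional 95% intervals (SciPy 1.17.1), for counting error only. No doublets were removed, and cells over 2 times the median UMIs were left out in an alternative. GENCODE M21 held 30934 of the 31053 gene IDs (99.6%).

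Named genes are up to 12 per direction by smallest p among genes past the threshold, 8 per direction by interval bound between days, and members of the lists that passed, had the smallest p or were most abundant (not all printed), without immunoglobulin, mitochondrial, ribosomal and predicted genes unless within 500 kb of a light chain locus. Rpia, Eif2ak3, Gbp7, Irf1, Zbp1, Ciita, Siglech, Tyrobp, Fcer1g and Bst2 were named after their values were seen. The fit was also run on simulated counts, drawn with the dispersion of the fit itself and without UMIs gathered in single cells. That run cannot show how the fit treats genes whose UMIs lie in few cells. Values of some genes that these steps used are not reported here.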

Additional observations from a re-analysis of the deposited data

Results flagged for a closer look

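Bst2 moved in opposite directions between the days in the 2 classes, with both exact intervals clear of 1, and was the only one of 76 named or listed genes to do so. Its day 14 over day 0 ratio was 0.393 (0.215 to 0.686) in lambda cells and 1.44 (1.25 to 1.66) in kappa cells, and the difference was not tested. The lambda cell of day 0 that held Siglech and no B cell marker carried 28 of the 49 day 0 UMIs. Without cells lacking a B cell marker the lambda ratio was 0.912 (0.458 to 1.80), and in lambda cells with under 3 Igkc UMIs it was 1.19, on 14 and 10 UMIs.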

How the results depend on the processing

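The lambda share depended on the rule for calling cells. At day 14 and day 0 it was 3.76% and 6.27% with a minimum of 5 UMIs, 2.68% and 4.77% with 10, 3.39% and 4.79% where the assigned chain had at least 3 times the other, and 3.02% and 3.65% for lambda cells with under 3 Igkc UMIs only. The last subset, its splits by Iglc1, the fit without the cell with most UMIs per gene and the fit on cells with a B cell marker were chosen after seeing the data. Requiring over 80% of Iglc UMIs gave Iglc1, Iglc2 and Iglc3 18.6%, 22.4% and 2.38% of lambda cells at day 14 and 13.1%, 18.8% and 2.18% at day 0. With lambda at least 3 times kappa, Iglc1 had 42.1% at day 14, and Iglc1, Iglc2 and Iglc3 had 48.3%, 33.3% and 6.67% at day 0. At day 0, thinning gave Iglc1 24.1% and Iglc2 54.2%, and under 3 Igkc UMIs gave the 3 genes 47.4%, 31.0% and 7.76%. IgA at day 0 after thinning was 9.38% in lambda and 2.21% in kappa cells, against 5.67% and 2.92% at full depth.

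Counts of genes called higher and lower in lambda cells, 23 and 32 with the library as a replicate block, were 1 and 0 with no replicate block (524 at an unadjusted p under 0.05, edgeR) and 1 and 3 with DESeq2 (73). They were 27 and 19 with library size only, 16 and 55 over all genes with a UMI, 14 and 40 with the strict rule (10 UMIs and 3 times the other chain), 16 and 13 without the immunoglobulin limit, and 6 and 8 without deep cells. Cells without switched heavy chains gave 0 and 0, thinned cells 0 and 1, and lambda cells with under 3 Igkc UMIs 0 and 1, of which mostly Iglc1 cells gave 0 and 1 and the others 4 and 5. Without the top cell per gene they were 32 and 8, in a setting that takes a larger part from the lambda than from the kappa sums. The causes were not tested. Leaving out a library leaves 1 pair of sums and no test, so only the ratio in the other library was taken.

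Directions turned for Hspa1a (-0.71) and Hist1h2bc (-0.23) in mostly Iglc1 cells with under 3 Igkc UMIs. They also turned for Pclaf (-0.88) in all lambda cells with under 3 Igkc UMIs, and for Cd24a (-0.01) and Malat1 (0.04) in those not mostly Iglc1. Malat1 (0.02) turned without the top cell, a setting that takes a larger part from lambda than from kappa sums. Vpreb3 (0.03) turned without the immunoglobulin limit. Plac8 was at -0.14 with the strict rule, -0.06 in mostly Iglc1 cells, -0.02 without the day 14 library and 0.43 without the day 0 library, and Mzb1 at -0.05 and 0.51 in the same libraries.

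Between days, genes at least 1.5-fold higher and lower in lambda cells, 76 and 191 at 50 UMIs, were 331 and 623 at 20 UMIs, 17 and 55 at 100 UMIs, and 42 and 71 with the strict rule, with 121 higher with TMM factors and 86 lower in lambda cells with under 3 Igkc UMIs. In kappa cells, 119 and 401 became 193 and 249 with TMM, 202 and 236 with median-of-ratios factors, 233 and 683 at 20 UMIs, and 69 and 232 at 100 UMIs. Of 96 values of the 16 genes taken by the rule between days, 88 stayed within the interval of the ratio, 8 moved and 0 turned. A sum near 50 UMIs leaves intervals too wide to show a 1.5-fold difference.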
